A study of Homo sapiens with 4 samples.

Results

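The genes of cholesterol and fatty acid synthesis were followed between the nucleus and the cytoplasm of HEK293T, a cell line from human embryonic kidney into which the large T antigen of SV40 was introduced. The 28 genes were taken as a list of symbols for the enzymes of both pathways and for the proteins that regulate them, and all 28 were found among 23333 genes with an adjusted p-value in the deposited table. The cells were wildtype and were crosslinked with formaldehyde before they were lysed in a detergent buffer and separated into both fractions. The data hold 2 nuclear and 2 cytoplasmic libraries from independent biological replicates. Each was prepared from 400 ng of RNA with a kit that depletes ribosomal RNA, and read from both ends for 100 nt. Since every library started from the same mass of RNA, a value is relative to the other RNAs of that fraction and not an amount per cell, and more RNA of a gene cannot be told apart from less of the other RNAs. Reads in introns were counted with those in exons, so unspliced RNA adds to a gene's value.

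Animal cells build cholesterol from acetyl-CoA in the cytosol and in the membrane of the endoplasmic reticulum. Acetyl units are joined into mevalonate, mevalonate is turned into isoprenoid units, these are condensed to squalene, and squalene is closed into a ring system and trimmed to cholesterol. When sterols are scarce, SCAP escorts the membrane-bound SREBP transcription factors, the products of SREBF1 and SREBF2, from the endoplasmic reticulum to the Golgi, where they are cut and released to the nucleus to switch on these genes. INSIG proteins hold SCAP back when sterols are plentiful. Fatty acids are made in the cytosol from the same acetyl-CoA, under the same transcription factors. Many of the enzymes and all SCAP, INSIG and SREBP proteins sit in the membrane of the endoplasmic reticulum, where their mRNAs are translated.

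Counts of the single libraries were recovered from the deposited means as described with the processing, and each library is named here by its depth, because its replicate number is not known. The total counts were 24505556 and 21404287 in the deeper and shallower nuclear library, and 24130711 and 21970241 in the deeper and shallower cytoplasmic library, with 5.52% to 24.9% of a total estimated rather than recovered. Counts were divided by each library's size factor, and these normalized counts are the values given below. The difference between the fractions is the mean log2 of the cytoplasmic libraries minus that of the nuclear libraries, with a pseudocount of 0.5, tested with limma over 23277 genes and called at a Benjamini-Hochberg adjusted p-value of at most 0.01. The nuclear RNAs MALAT1 and NEAT1, used to check the fractions, differed by -3.48 (standard error, SE, 0.15) and -3.08 (SE 0.11). The mitochondrially encoded MT-CYB differed by 0.35 (SE 0.17) and did not pass (limma adjusted p = 0.090). It was at 2342 and 2976 in the nuclear and at 3964 and 2872 in the cytoplasmic libraries, so the fractions overlapped for this RNA. How much RNA from outside the nucleus the nuclear fraction held was not tested. Of 5 genes expressed in this line, LIN28B, PAX2, NEFM, NEFL and VIM, all were detected, with means from 63.1 to 18261, while 10 marker genes of hepatocytes, leukocytes, red cells and steroid-producing cells had means of at most 2.06.

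After scaling by size factors, most genes of the pathway were higher in the cytoplasmic fraction. The test called 20 of the 28 genes on the cytoplasmic side and 4 on the nuclear side, and 4 did not pass. Among all genes tested, 27.9% were called on the cytoplasmic and 31.5% on the nuclear side. These include many genes with low counts. Of 12087 protein-coding genes with a mean over 50, 5330 were called cytoplasmic and 4087 nuclear, with a median difference of 0.22. The median difference of the 28 genes was 0.83, against 0.10 for the 15291 protein-coding genes and -0.14 for all genes. The members ranged from ACAT2 at 2.55, above 94.7% of the protein-coding genes, to ELOVL6 at -1.73, above 14.7% of them.

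The libraries of a fraction stood close together for these genes. For 22 genes both cytoplasmic libraries were above both nuclear libraries and for 6 both were below, so the fractions overlapped for none of the 28. Of all genes, 40.4% and 45.6% were separated in these directions. All members had means over 50. Among 12087 protein-coding genes with such means, 6294 and 4962 were separated, so separation was common at these levels. The median absolute log2 ratio between the libraries of a fraction was 0.11 for the nuclear and 0.19 for the cytoplasmic pair, and the largest was 0.56, for MVK in the nuclear pair. Levels differed more between genes than between fractions, with FASN at a mean 76.1 times that of PMVK, without allowance for gene length.

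**Figure D1:**
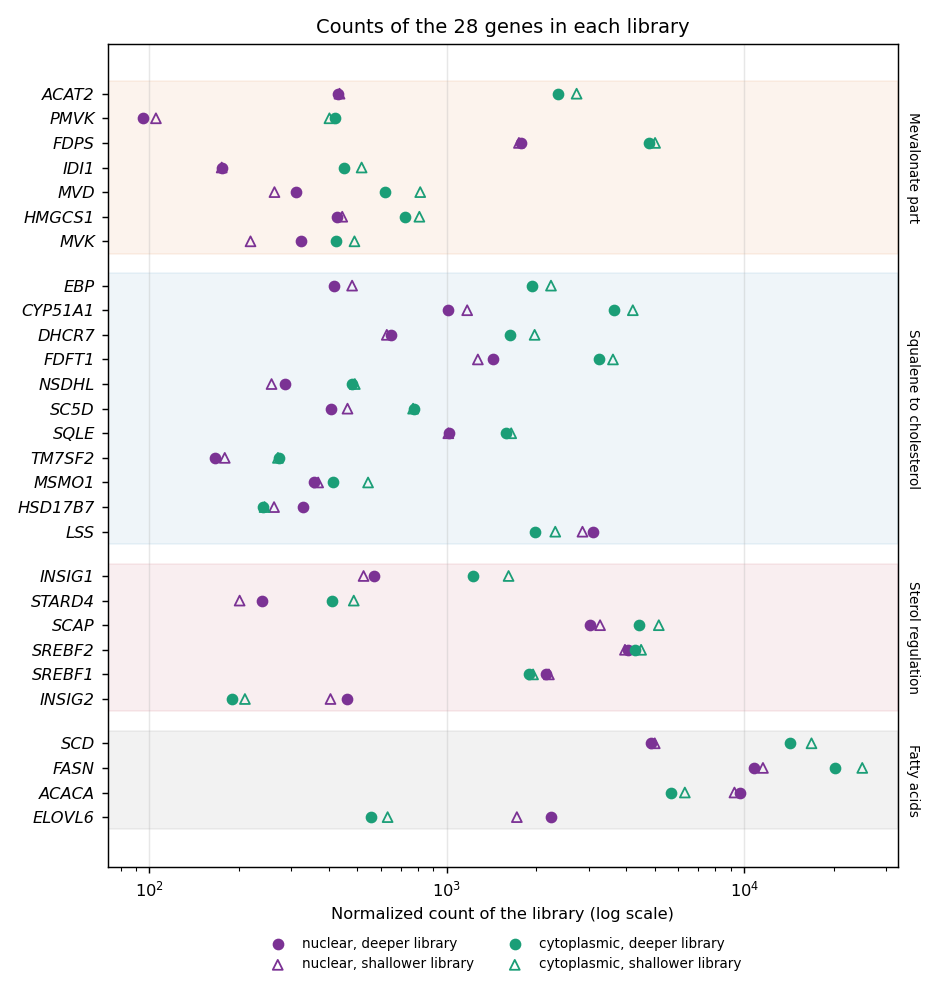
Normalized counts of the 28 genes in the 2 nuclear (purple) and 2 cytoplasmic (green) libraries, on a log scale, with circles for the deeper and triangles for the shallower library of a fraction. For no gene do the green and purple symbols interleave, and green lies to the right of purple for 22 genes.

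The calls depend on how the libraries are put on 1 scale. With every library scaled to the same total, all differences became lower by about 0.66, the cytoplasmic calls fell to 11 (17.2% of all genes) and the nuclear calls rose to 7 (44.4% of all genes). Both scales shared all 4 nuclear calls and 11 of the 20 on the cytoplasmic side, and SREBF1, SREBF2 and HSD17B7 were nuclear calls only on the second. Without either nuclear library, no member changed direction, and the largest move was 0.28, for MVK. In that fit the spread comes from the cytoplasmic pair alone, with 1 residual degree of freedom. It therefore cannot show whether the calls hold.

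**Figure D2:**
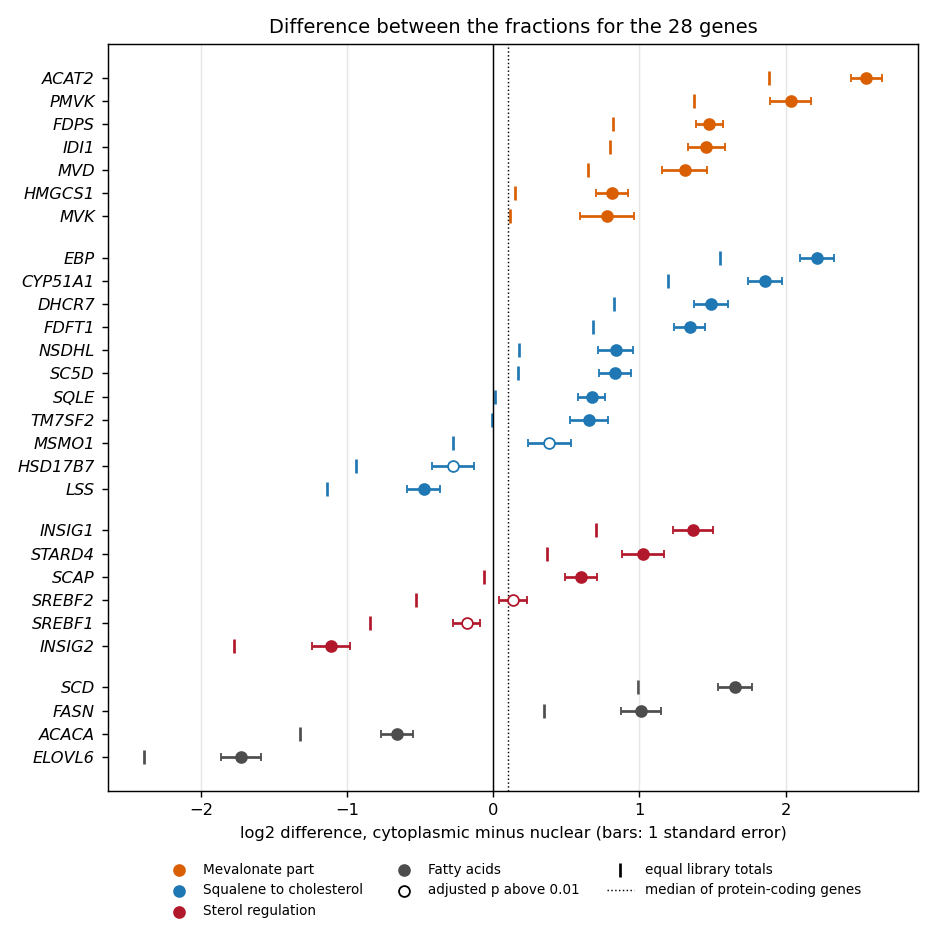
The log2 difference between the fractions (cytoplasmic minus nuclear) for the 28 genes by role, with bars of 1 standard error from limma. Filled circles passed an adjusted p-value of 0.01, ticks give the value with equal library totals, and the dotted line marks the protein-coding median of 0.10. Values are positive for 22 genes, or for 18 with equal library totals, where SREBF2, MSMO1, SCAP and TM7SF2 fall below 0.

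All 7 genes of the mevalonate part rose in the cytoplasmic fraction, with a median difference of 1.46, and 5 of them passed with equal library totals. ACAT2 (chromosome 6, 159762045 to 159779112, plus strand, hg38), the cytosolic thiolase that joins acetyl units at the start of the pathway, had the largest difference of the 28. Its normalized counts were 429.5 and 436 in the nuclear and 2359 and 2731 in the cytoplasmic libraries, 5.86-fold higher in the cytoplasmic fraction (log2 difference 2.55, SE 0.11, limma adjusted p = 1.56e-07). With equal library totals it remained at 1.89 and passed the threshold.

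HMGCS1 (chromosome 5, 43287470 to 43313512, minus strand) makes HMG-CoA from this product. It was at 427 and 445 in the nuclear and at 722 and 808 in the cytoplasmic libraries, a difference of 0.81 (SE 0.11). With equal library totals the value was 0.15 and no longer passed the test, with a limma adjusted p of 0.22. The GENCODE 44 annotation places another gene over 48.9% of its exonic bases. The authors left stretches shared by several genes out of their annotation, made from GENCODE 34. Whether this stretch was among them was not checked.

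The kinases that follow differed in the size of their shift. MVK (chromosome 12, 109573255 to 109598125, plus strand), mevalonate kinase, was at 323 and 219 in the nuclear libraries, the widest gap between libraries of a fraction among the 28 genes. In the cytoplasmic libraries it was at 423 and 489, and its difference of 0.77 (SE 0.18) was the call closest to the threshold on the cytoplasmic side, with a limma adjusted p of 0.0051. Without the deeper or the shallower cytoplasmic library it was 0.88 or 0.67 and did not pass (limma adjusted p = 0.032 and 0.071). It did not pass either with equal library totals, at 0.11 (limma adjusted p = 0.585), with centring on the protein-coding median or with the upper quartile (limma adjusted p = 0.023 and 0.013). PMVK (chromosome 1, 154924740 to 154936719, minus strand), phosphomevalonate kinase, was the least abundant of the 28. It rose from 95.5 and 105 in the nuclear to 421 and 403 in the cytoplasmic libraries, a 4.10-fold difference in normalized counts.

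The genes that make and join the isoprenoid units all rose in the cytoplasmic fraction. MVD (chromosome 16, 88651935 to 88663161, minus strand), the decarboxylase that gives isopentenyl diphosphate, was at 310.2 and 263 in the nuclear and 618 and 814 in the cytoplasmic libraries. IDI1 (chromosome 10, 1039152 to 1049119, minus strand), which isomerises that unit, was at 176 and 175 against 451 and 517. FDPS (chromosome 1, 155308748 to 155320666, plus strand), the synthase of farnesyl diphosphate, was at 1773 and 1747 against 4797 and 5015. Their differences were 1.31 (SE 0.15), 1.46 (SE 0.13) and 1.48 (SE 0.09), and all 3 passed the test with equal library totals as well. Exonic bases under a second annotated gene made up 80.1% in IDI1, where the antisense gene IDI2-AS1 lies, and 38.1% in FDPS, where RUSC1-AS1 lies. Stretches under more than 1 gene were left out of the authors' annotation, so these genes may have been counted over the rest only. Whether the same bases were left out there was not checked.

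Squalene synthesis and ring closure did not move together. FDFT1 (chromosome 8, 11795573 to 11839395, plus strand), squalene synthase, rose from 1433 and 1271 in the nuclear to 3250.2 and 3619 in the cytoplasmic libraries, a difference of 1.34 (SE 0.11). SQLE (chromosome 8, 124998497 to 125022283, plus strand), squalene epoxidase and a rate-limiting enzyme of the pathway, had nearly equal nuclear values of 1013 and 1012. Its cytoplasmic values were 1584 and 1646, a difference of 0.67 (SE 0.09) that shrank to 0.01 with equal library totals.

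LSS (chromosome 21, 46188141 to 46228824, minus strand), which closes the epoxide into lanosterol, was the only sterol enzyme of the list called higher in the nuclear fraction after scaling by size factors; with equal library totals HSD17B7 was called as well. It was at 3108 and 2858 in the nuclear and at 1977 and 2315 in the cytoplasmic libraries. Normalized counts were 1.39-fold higher in the nuclear fraction (log2 difference -0.48, SE 0.11, limma adjusted p = 0.00435), and without the deeper cytoplasmic library it was -0.36 and did not pass (limma adjusted p = 0.038). With equal library totals the difference was -1.14.

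CYP51A1 (chromosome 7, 92084987 to 92134803, minus strand), the demethylase that acts on lanosterol, stood at the other side of that step. It was at 1006 and 1171 in the nuclear and at 3662 and 4221 in the cytoplasmic libraries, a difference of 1.86 (SE 0.12) that passed on both scales. The gene spans 49.8 kb, and the decile of protein-coding genes with that span had a median of 0.21. However, 52.0% of its span and 18.1% of its exonic bases lie under other annotated genes, AKAP9 and CYP51A1-AS1. Stretches shared by several genes were left out of the authors' annotation, so part of the introns may not have been counted. The effect on its place beside the decile was not tested. Its processed pseudogene copies had means of at most 2.30 and so took few counts.

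The enzymes at work around the removal of methyl groups from lanosterol had low counts and included 2 members that did not pass. TM7SF2 (chromosome 11, 65111845 to 65116384, plus strand), a sterol reductase, was at 166 and 179 in the nuclear and 272 and 270.3 in the cytoplasmic libraries, a difference of 0.65 (SE 0.13) that became -0.01 with equal library totals. It did not pass without the deeper or the shallower cytoplasmic library (limma adjusted p = 0.015 and 0.014). NSDHL (chromosome X, 152830967 to 152869729, plus strand), the dehydrogenase of the demethylation complex, was at 286 and 257 against 478 and 490.3, a difference of 0.84 (SE 0.12) that became 0.17 with equal library totals and did not pass. MSMO1 (chromosome 4, 165327667 to 165343164, plus strand), the oxygenase that starts the demethylation, did not pass. Its values of 357 and 369 against 413 and 543 gave 0.38 (SE 0.15) with a limma adjusted p of 0.041, the member nearest to the threshold from outside, and -0.28 with equal library totals. Without the deeper cytoplasmic library MSMO1 was at 0.58 and passed.

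HSD17B7 (chromosome 1, 162790702 to 162812823, plus strand), the ketoreductase of the same complex, was at 329 and 262 in the nuclear and 240.4 and 244 in the cytoplasmic libraries. Its difference of -0.28 (SE 0.15) did not pass (limma adjusted p = 0.115). The unprocessed pseudogene HSD17B7P2 on chromosome 10 had a mean of 197 beside 269 for the gene itself, so how reads were divided between these near copies is uncertain.

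The last enzymes of the pathway rose in the cytoplasmic fraction. EBP (chromosome X, 48521799 to 48528716, plus strand), the sterol isomerase, was at 418 and 480.2 in the nuclear and 1936 and 2239.6 in the cytoplasmic libraries, a 4.65-fold difference in normalized counts. SC5D (chromosome 11, 121292681 to 121313410, plus strand), a sterol desaturase, was at 407 and 463 against 777 and 769.9. DHCR7 (chromosome 11, 71428193 to 71452868, minus strand), a reductase that completes cholesterol, was at 651 and 628 against 1634 and 1973.

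These 3 genes had differences of 2.22 (SE 0.12), 0.83 (SE 0.11) and 1.49 (SE 0.11). EBP and DHCR7 passed with equal library totals, while SC5D moved to 0.17 and did not. In all, the 11 genes from squalene to cholesterol gave 8 cytoplasmic calls and 1 nuclear call, with a median of 0.83, or 4 and 2 calls and a median of 0.17 with equal library totals.

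The regulators were split, and the INSIG paralogs lay on opposite sides. INSIG1 (chromosome 7, 155297776 to 155310235, plus strand) is itself an SREBP target, and its protein is short-lived. Its values rose from 568 and 525 in the nuclear to 1226 and 1613 in the cytoplasmic libraries, a difference of 1.37 (SE 0.14, limma adjusted p = 2.59e-05). INSIG2 (chromosome 2, 118088452 to 118110997, plus strand), which does the same task, was at 460.1 and 406 in the nuclear but at 189.9 and 209 in the cytoplasmic libraries. It was 2.16-fold higher in the nuclear fraction (log2 difference -1.11, SE 0.13, limma adjusted p = 6.81e-05).

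A ratio of both genes within a library needs no scaling between libraries. The log2 ratio of INSIG1 over INSIG2 was 0.30 and 0.37 in the nuclear and 2.69 and 2.94 in the cytoplasmic libraries, so the balance differed 5.59-fold between the fractions. Both genes have short spans, 12.5 kb for INSIG1 and 22.5 kb for INSIG2. The decile of protein-coding genes that holds INSIG2 had a median of 0.69, which is 1.80 above the value of INSIG2.

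The genes of the transcription factors did not pass the test, but were called nuclear with equal library totals. SREBF2 (chromosome 22, 41833105 to 41907306, plus strand), whose product favours the cholesterol genes, was at 4057 and 3972 in the nuclear and 4294 and 4500.4 in the cytoplasmic libraries. Its difference of 0.13 (SE 0.10) did not pass, and its sign turned under other scales, to -0.53 with equal library totals, -0.08 when centred on the protein-coding median and -0.01 with the upper quartile. SREBF1 (chromosome 17, 17810399 to 17837002, minus strand), whose product favours the fatty acid genes, was at 2149.95 and 2204 against 1885 and 1949, a difference of -0.18 (SE 0.09) that did not pass (limma adjusted p = 0.10). SREBF1 was at -0.85 with equal library totals and at -0.39 when centred on the protein-coding median, and passed in both.

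SCAP (chromosome 3, 47413681 to 47477126, minus strand), the escort and sterol sensor, was at 3038 and 3275 in the nuclear and at 4429.8 and 5162 in the cytoplasmic libraries. The difference of 0.60 (SE 0.11) passed, but moved to -0.06 with equal library totals and did not pass at 0.49 without the shallower cytoplasmic library (limma adjusted p = 0.015). STARD4 (chromosome 5, 111496033 to 111512590, minus strand), a small carrier that moves cholesterol between membranes, rose from 239 and 201 to 410.4 and 486, a difference of 1.02 (SE 0.14). Its value with equal library totals was 0.36, with a limma adjusted p of 0.040.

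Regulation of these genes by sterols acts at their promoters, so the start sites were read as a description of the list. RefSeq windows of 250 bases before to 50 after a start (GRCh38.p14) were held for 24 of the 28 genes, some with several starts, and those of ACAT2, SQLE, FDFT1 and FASN were not used here. The sterol response element, searched as TCACNCCAC on both strands, was found in SREBF2 and in no other member, and in 1.39% of all 27305 genes with a window. A gene was counted where any of its windows matched. The CCAAT box, searched as CCAAT on both strands, was found in 18 of the 24 genes and in 39.7% of all genes with a window. Of the genes with a window, 13 of 16 called cytoplasmic and 2 of 4 called nuclear held a CCAAT box. The E-box CACGTG was found in INSIG1, LSS, SC5D and SCAP and in 8.77% of all genes with a window. A match is a run of letters and not a measured binding site. A gene without a match can still hold a site that is spelled otherwise or lies outside the window. The sequences below show the element of SREBF2 and a CCAAT box of HMGCS1, FDPS and INSIG1 in 30 bases before the start, 5′ to 3′ on the strand of the gene, with the matched letters in capitals (ATTGG is CCAAT on the opposite strand).
SREBF2 (chr22:41832962-41832991, plus strand): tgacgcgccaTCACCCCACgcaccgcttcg
HMGCS1 (chr5:43313550-43313579, minus strand): agtttccttttgATTGGtagaagccggact
FDPS (chr1:155308678-155308707, plus strand): ttcagcccttccATTGGtcgtccgtcacag
INSIG1 (chr7:155297696-155297725, plus strand): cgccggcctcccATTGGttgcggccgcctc

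The 4 genes shown differ in their fraction, with SREBF2 not called and HMGCS1, FDPS and INSIG1 on the cytoplasmic side. INSIG2 is among the genes with a window and no CCAAT box in it, together with CYP51A1, ELOVL6, PMVK, SCAP and SREBF1. PMVK, CYP51A1 and SCAP were cytoplasmic calls, so the genes without a CCAAT box lay on both sides.

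The fatty acid genes held the most abundant members and divided evenly, 2 on each side. FASN (chromosome 17, 82078338 to 82098294, minus strand), the multidomain synthase that builds palmitate, had the highest values, with 10765 and 11561 in the nuclear and 20212 and 24944 in the cytoplasmic libraries. Its difference was 1.01 (SE 0.14), and 0.35 with equal library totals, which no longer passed (limma adjusted p = 0.038). ACACA (chromosome 17, 37084992 to 37406836, minus strand), the carboxylase that supplies FASN with malonyl-CoA, ran the other way. It was at 9704 and 9272 in the nuclear and 5691 and 6315 in the cytoplasmic libraries, 1.58-fold higher in the nuclear fraction (log2 difference -0.66, SE 0.11, limma adjusted p = 0.00059).

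SCD (chromosome 10, 100347233 to 100364826, plus strand) and ELOVL6 (chromosome 4, 110045846 to 110199199, minus strand) desaturate and lengthen the products of FASN. SCD rose from 4844 and 5002 in the nuclear to 14254 and 16835 in the cytoplasmic libraries, a difference of 1.65 (SE 0.12) that passed on both scales. ELOVL6 was at 2244 and 1719.6 in the nuclear but at 556 and 632 in the cytoplasmic libraries, the lowest difference of the 28 (-1.73, SE 0.14, limma adjusted p = 6.03e-06). Normalized counts of ELOVL6 were 3.31-fold higher in the nuclear fraction, and with equal library totals the difference was -2.39.

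Within a library, FASN and ACACA had nearly equal counts in the nuclear fraction and not in the cytoplasmic fraction. The log2 ratio of FASN over ACACA was 0.15 and 0.32 in the nuclear and 1.83 and 1.98 in the cytoplasmic libraries. For SCD over ELOVL6 it was 1.11 and 1.54 against 4.68 and 4.73, a 10.4-fold difference and the widest of the 6 pairs set side by side. CYP51A1 over LSS changed sign, from -1.63 and -1.29 to 0.89 and 0.87. EBP over HSD17B7 was at 0.34 and 0.87 against 3.01 and 3.20, and SREBF2 over SREBF1 at 0.92 and 0.85 against 1.19 and 1.21. The pairs were chosen with their differences known and carry no test, and 2 against 2 libraries could not reach an exact two-sided permutation p under 0.333.

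**Figure D3:**
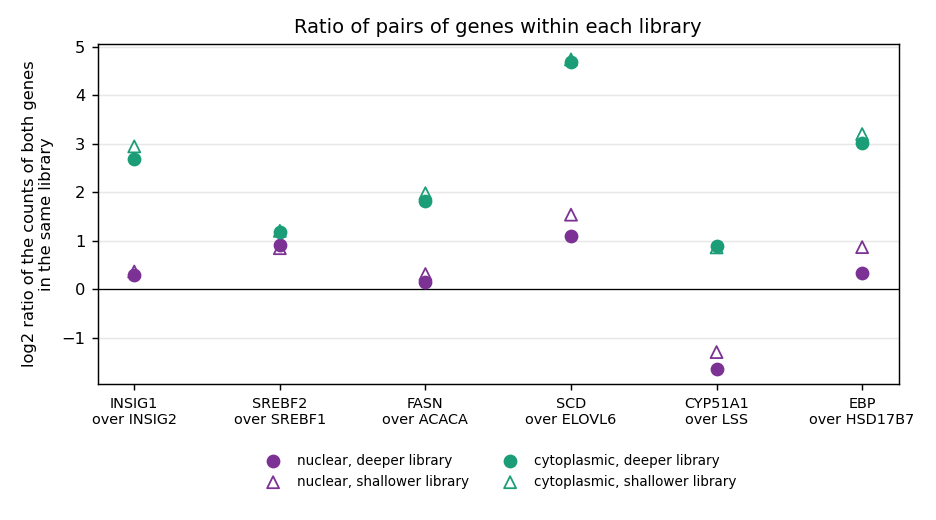
The log2 ratio of the counts of 2 genes in the same library, for 6 pairs, in the nuclear (purple) and cytoplasmic (green) libraries. The ratio is free of the scaling between libraries, and all 6 ratios are higher in both cytoplasmic libraries, by 0.31 for SREBF2 over SREBF1 up to 3.38 for SCD over ELOVL6.

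Taken as a share of each library's total, the 28 genes held 27.8 and 28.05 of every 10000 counts in the nuclear libraries. In the cytoplasmic libraries they held 27.98 and 31.5, so these shares overlapped between the fractions. Without FASN, ACACA and SCD the shares were 13.9 and 13.7 against 13.8 and 15.0. FASN, ACACA and SCD had the 3 highest mean counts of the members.

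The fraction of the members was next set beside the structure of their genes, which the choice of the list did not use. Across 12087 protein-coding genes with a mean over 50, Spearman's rho of the span of the gene with the difference was -0.71. Over the 28 members it was -0.51 with span, -0.50 with intron length and -0.48 with exonic length. Without ACACA and ELOVL6, the longest members at 322 and 153 kb, it was -0.40 over 26 genes. Points share the same 4 libraries, and these values are a description with no p-value. The level of the members had a rho of 0.02 with their difference.

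Beside genes of similar span, the members lay on both sides of the median. Of the 28 genes, 16 were above and 11 below the median of protein-coding genes in the same decile of span, and FDPS was at that median. Above the interquartile range of their decile were 8 genes, ACAT2, FDFT1, CYP51A1, NSDHL, EBP, DHCR7, ACACA and SCAP. The gene ACACA was therefore higher in the nuclear fraction and at the same time 1.35 above the median of -2.01 of its decile. Below the interquartile range were 6 genes, TM7SF2, MSMO1, HSD17B7, INSIG2, SREBF1 and ELOVL6. By definition a fixed share of any genes lies outside that range on each side. Counts of 8 and 6 among 28 are near that share, so they are not particular to the members. TM7SF2 has the shortest span, 4.54 kb, and its 0.65 stood beside a median of 2.22 for its decile.

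**Figure D4:**
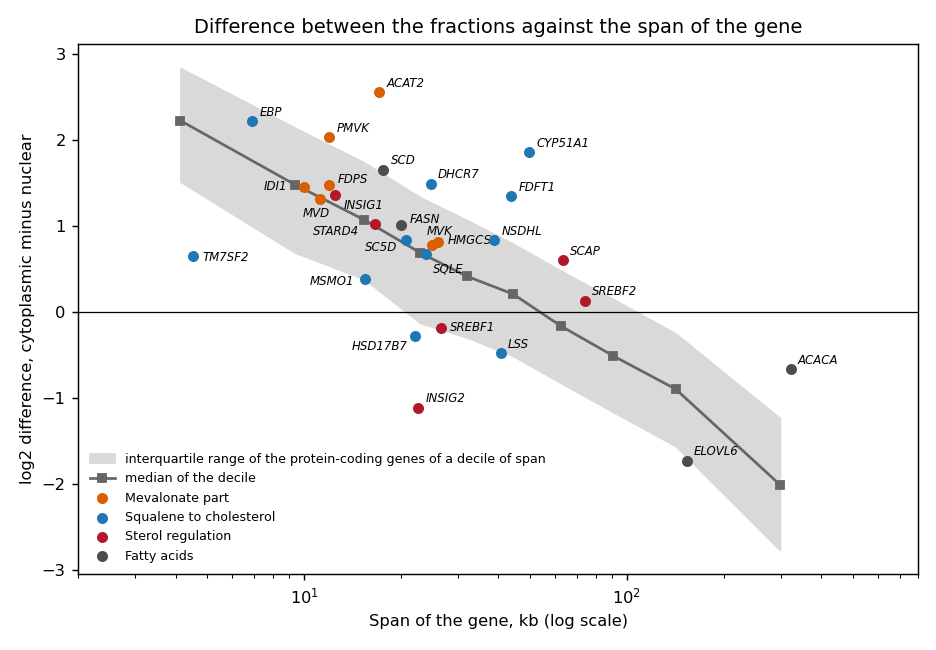
The log2 difference between the fractions (cytoplasmic minus nuclear) of the 28 genes against the span of the gene in kb, on a log scale. The grey line and band give the median and the interquartile range of 12087 protein-coding genes in deciles of span, from a median of 2.22 in the shortest to -2.01 in the longest decile, on the main scale; with equal library totals all values are lower by about 0.66. INSIG2 lies 1.80 below and CYP51A1 1.65 above the median of its decile. Other annotated genes lie over 52.0% of the span of CYP51A1.

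A further 4 groups of lipid genes were counted for context, 20 genes in each list. The calls of these and the later lists are to be read beside the shares of all genes. Those shares were 27.9% cytoplasmic and 31.5% nuclear, or 17.2% and 44.4% with equal library totals. Among genes that supply or use acyl chains, there were 12 cytoplasmic and 4 nuclear calls and a median of 0.72, which became 0.06 with equal library totals, where the calls were 8 and 7. The mitochondrial citrate carrier SLC25A1, which exports the carbon used for both pathways, was at 459 and 593 in the nuclear and 3405 and 3867 in the cytoplasmic libraries, a difference of 2.80 (SE 0.14). AGPAT2, an acyltransferase of phospholipid synthesis, was at 1.99. On the nuclear side were HSD17B12, a reductase of the same elongation cycle as ELOVL6, at -1.47, and ME1, the malic enzyme that supplies NADPH, at -0.92.

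Genes for sterol sensing and protein turnover gave 12 cytoplasmic and 2 nuclear calls, with a median of 0.52. VCP, the ATPase that pulls proteins from the membrane for degradation, was at 1.95, and SP1, a partner of SREBP at promoters, at 1.60. The ubiquitin ligase RNF145 was at -0.89 and UBXN4, a VCP partner, at -0.86. With equal library totals the median of this list was -0.15 and the calls were 5 and 7.

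Among genes of sterol transport and esterification, the calls were 7 cytoplasmic and 4 nuclear, with a median of 0.21 that became -0.46 with equal library totals, where the calls were 2 and 10. Out of 20 genes, these calls were near the shares of all genes on both scales. NPC2, which carries cholesterol in lysosomes, was at 2.82 and TMEM97 at 2.63. GRAMD1B, a cholesterol transporter at contact sites, was at -1.87 and VPS13A, a bridge for lipids, at -1.37. GRAMD1B spans 269 kb and VPS13A 244 kb.

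In the other branches from isoprenoids, 18 of 20 listed genes were tested, with 11 cytoplasmic and 3 nuclear calls and a median of 0.59 that turned to -0.07 with equal library totals, where the calls were 5 and 7. ICMT, which methylates prenylated proteins, was at 2.58 and DOLK, dolichol kinase, at 1.71. The subunits of the synthase that makes the tail of coenzyme Q were both lower in the cytoplasmic fraction, PDSS2 at -2.56 and PDSS1 at -0.65. PDSS2 spans 307 kb and PDSS1 49.1 kb.

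As a comparison, all 14 tested glycolytic enzymes were called higher in the cytoplasmic fraction, with a median of 2.15. Of 26 genes for import into the endoplasmic reticulum and for N-glycosylation, 21 were cytoplasmic and 3 nuclear calls, with a median of 1.47. The corresponding values for the 28 lipid synthesis genes were 20 and 4 calls and a median of 0.83, and with equal library totals the medians were 1.49, 0.81 and 0.17. No test between these lists was made.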

How the data were processed

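RNA of 2 nuclear and 2 cytoplasmic fractions was sequenced. Per the labels, the authors aligned reads to hg38 with STAR, and counted them with featureCounts 2.0.2 over exons and introns, using an annotation from GENCODE 34 without stretches shared by several genes or readthrough transcripts. Both fractions were compared by the authors in DESeq2. The deposited table gives, per gene, a signal (the mean normalized count over all libraries), a log2 fold change with its error on the log2 scale, a test score, and a p-value and adjusted p-value. These columns are the authors' own comparison, and their values are neither printed nor compared here.

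They were used to recover whole counts. The deposited mean is a sum of whole counts weighted by 4 steps, 1 per library. A gene was accepted where a single combination returned the mean to 10 digits and the fold change within 5e-09 (1.2e-09 for means of 50 or more). This held for 23277 of 23333 genes (99.8%) and for all 28 members. For 56 genes it did not, 21 of them with means over the search limit of 40000, and their part of a total was estimated. Genes with 1 count in all gave the fraction of each step, from the sign of their fold change. The recovery and the test were checked on simulated data. The recovery returned the right counts for all 200 genes tried, which had means over about the range of the members. Their estimates were made with the same model and steps as the recovery. An error in these, or at lower means, would not show in this check. The test called 0 of 66 genes set to a log2 difference of 0.5, 5 of 67 set to 1 and 46 of 67 set to 2. It called 0 of 23077 genes set to 0. How often differences of these sizes are called where many genes differ, as in the measured libraries, was not tested.

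Counts were divided by the size factors (1.34, 1.19, 0.853 and 0.755) and tested with limma 3.58.1 in R 4.3.3 (lmFit, eBayes with trend) on log2(normalized count + 0.5), with Benjamini-Hochberg adjustment over all genes tested. Gene spans came from GENCODE 44. All 28 members were named whatever their values. From each other list up to 2 called genes per direction with the largest difference and a mean over 50 were named. The members and lists were chosen with earlier results of these data known. Alternatives were other scalings, filters, pseudocounts, thresholds and variance models, and leaving out each library. P-values rest on the spread between 2 libraries per fraction, drawn by limma toward a trend over all genes with 6.31 prior degrees of freedom. They therefore do not measure a gene's own spread alone. The names of a few pathway genes are not reported here.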

Additional observations from a re-analysis of the deposited data

How the results depend on the processing

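Counts of members called were 20 cytoplasmic and 4 nuclear, and were within 1.5 times of these with centring on the protein-coding median, upper quartile scaling, no minimum mean, a minimum mean of 50, a pseudocount of 5, voom and an adjusted p-value of at most 0.05. They were 11 and 7 with equal library totals, 10 and 2 without an intensity trend, and 5 and 0 with Bonferroni adjustment at 0.01. With equal library totals the shares of all genes called were 17.2% cytoplasmic and 44.4% nuclear. Such shares are not given here for the other alternatives of this section. Member counts under those alternatives therefore cannot show whether a change is particular to the members or common to all genes. Leaving out 1 library gave 0 to 19 cytoplasmic and 0 to 4 nuclear calls. The 0 came without either nuclear library, where 1 residual degree of freedom remained and the lowest adjusted p-values of members were 0.012 and 0.014. With voom, an alternative chosen after seeing the data, leaving out 1 library gave 20 to 21 and 3 to 4 calls. In these voom fits the prior degrees of freedom were infinite, so a gene's own spread carried no weight and the kept calls say nothing about stability. Directions turned with equal library totals for TM7SF2 (-0.0071), MSMO1 (-0.28), SREBF2 (-0.53) and SCAP (-0.062), and for SREBF2 also with centring on the protein-coding median (-0.079) and with the upper quartile (-0.012). No member turned when a library was left out, and the largest move was 0.28, for MVK. The cause of the remaining changes was not tested. No paired analysis was possible because replicate numbers of the recovered libraries are not known.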
